A study of Mus musculus with 4 samples.

Results

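The 9 genes described here were chosen by name as maternal pluripotency-associated factors. They are the POU factor Pou5f1, the SOX factors Sox15 and Sox2, the KLF factors Klf4, Klf5 and Klf17, the zinc-finger factor Sall4, the orphan nuclear receptor Nr5a2 and Lin28a. LIN28A binds RNA and is not a transcription factor, so the label fits 8 of the 9. Their symbols were looked up among the 16861 genes listed in each of 4 RNA-seq libraries. No listed gene was at 0 in 2 or more libraries, so a gene that is not listed may still have had reads in some libraries. Of the 9, 7 were listed, 6 had a mean level high enough to be tested, 1 (Klf4) was listed below that filter, and 2 (Sox2 and Klf5) were not listed and were not analysed here.

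A growing oocyte stores messenger RNA and protein that the embryo uses before its own genome is active. POU5F1 (OCT4) and SOX2 bind DNA together and hold the regulatory network of the inner cell mass and of embryonic stem cells, in which SALL4, KLF4, KLF5 and NR5A2 also act. SOX15 and KLF17 are relatives of SOX2 and KLF4 with germline or early embryonic expression, and LIN28A blocks the maturation of the let-7 microRNAs and binds many messages.

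The libraries came from germinal vesicle (GV) oocytes of 3-week-old female C57BL/6J mice, taken from antral follicles and stripped of cumulus cells by pipetting. No genotype or treatment separated the groups. Oocytes were sorted under a Hoechst DNA stain into the non-surrounded nucleolus (NSN) configuration, with dispersed chromatin, and the surrounded nucleolus (SN) configuration, with a ring of condensed chromatin. Each library pooled 15 oocytes and was made from polyadenylated RNA by Smart-seq2 with 18 cycles of PCR. There were 2 NSN and 2 SN libraries here, although the protocol text speaks of 3 samples a group. Nothing states that the pools came from separate animals, so the p-values measure only the spread between these libraries.

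Levels are FPKM, read pairs scaled to gene length and library size, so they are shares and carry no amount of RNA per oocyte. In pooled oocytes, fewer cells holding a message and less of it in each cell cannot be told apart. Recovered totals ran from 17069772 to 17998361 read pairs. At these depths 3 read pairs on 1 kb correspond to an FPKM of 0.167 to 0.176, a limit that covers counting error only. The 100 genes with the most read pairs on average over the 4 libraries took 39.8% and 38.7% of the NSN read pairs. In the SN libraries the same genes took 35.4% and 35.3%. The libraries carried their label: all 11 oocyte markers were listed, with a summed FPKM of 24717 and 23245 in NSN and 17118 and 16446 in SN oocytes. In the limma test described below, 8 of these markers were called lower in SN (Zp1, Zp2, Zp3, Gdf9, Bmp15, Ddx4, Nobox and Npm2). None was called higher, and that test called 7.93% of all genes tested. Of the 3 not called, Figla was lower in both SN libraries and Oosp1 overlapped. Kit was higher, at 16.0 and 17.2 FPKM in NSN and 20.1 and 20.7 FPKM in SN. Of 17 granulosa and cumulus cell markers 8 were listed and 9, among them Amh, Foxl2 and Fst, were not, and none of the 7 blood and immune markers was listed. Since unlisted genes may have had reads in some libraries, these gaps do not show that such cells were missing.

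The listed members differed widely in level. Averaged over the 4 libraries, Sall4 stood at 217.5 FPKM, above or level with 98.1% of the listed genes, and Klf17 at 155.3 FPKM, above or level with 97.4%. Pou5f1 and Sox15 formed a middle level at 14.9 and 8.58 FPKM. Nr5a2 at 1.59 FPKM and Lin28a at 1.18 FPKM lay near the middle of all listed genes, and Klf4 at 0.337 FPKM stood above or level with 24.4% of them. The step from Klf17 down to Pou5f1 was 10.4-fold, that from Sox15 to Nr5a2 5.4-fold and that from Lin28a to Klf4 3.50-fold, and the 4 libraries of the upper gene did not overlap with those of the lower gene at any of these steps. The ranges of the neighbours Sall4 and Klf17, Pou5f1 and Sox15, and Nr5a2 and Lin28a did overlap across the 4 libraries. Within each library Sall4 was above Klf17. Pou5f1 was above Sox15, and Nr5a2 above Lin28a, in every library except NSN replicate 1. These orders were not tested. These levels rest on the gene lengths that the authors used. The lengths recovered from the values were 861 bases for Sox15 and 1362 for Pou5f1, where the exons of the current annotation cover 1175 and 3090 bases, so the order of this pair also depends on the length chosen.

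**Figure D1:**
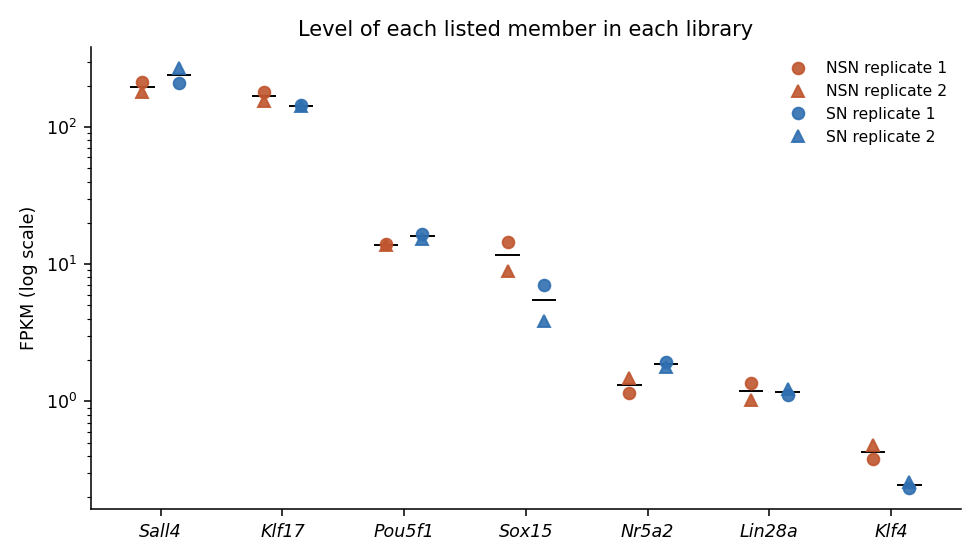
FPKM (log scale) of the 7 listed members in each of the 4 libraries, with NSN in orange, SN in blue, replicate 1 as circles, replicate 2 as triangles and the group mean as a bar. Sall4 and Klf17 lie above 141 FPKM in every library, and the 4 points of Sox15 spread from 14.5 down to 3.87 FPKM.

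The study asked how the oocyte changes between the NSN and SN configurations. For these genes the differences in RNA level went in both directions. None of the 6 tested members passed the test (limma, fold change of at least 1.2 with an adjusted p under 0.05), a rule that called 926 of the 11672 genes tested, or 7.93%. At an unadjusted p under 0.05 there were 2 members, Sox15 and Klf17, both lower in SN oocytes. This was 2 of 6, beside 31.7% of all genes tested. In 2 of the 6 (Sox15 and Klf17) both SN values lay below both NSN values, beside 17.8% of all genes tested. In another 2 (Pou5f1 and Nr5a2) both SN values lay above both NSN values, beside 44.8%. The counts of 6 are too small to set the members apart from these backgrounds. The median log2 fold change was 0.10 over the 6 members and 0.14 over all genes tested. Since scaling the libraries to the median gene removes that shift, each tested member's difference is also given relative to the median gene. The smallest two-sided p that exact permutation of 2 against 2 libraries allows for a single gene is 0.333.

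**Figure D2:**
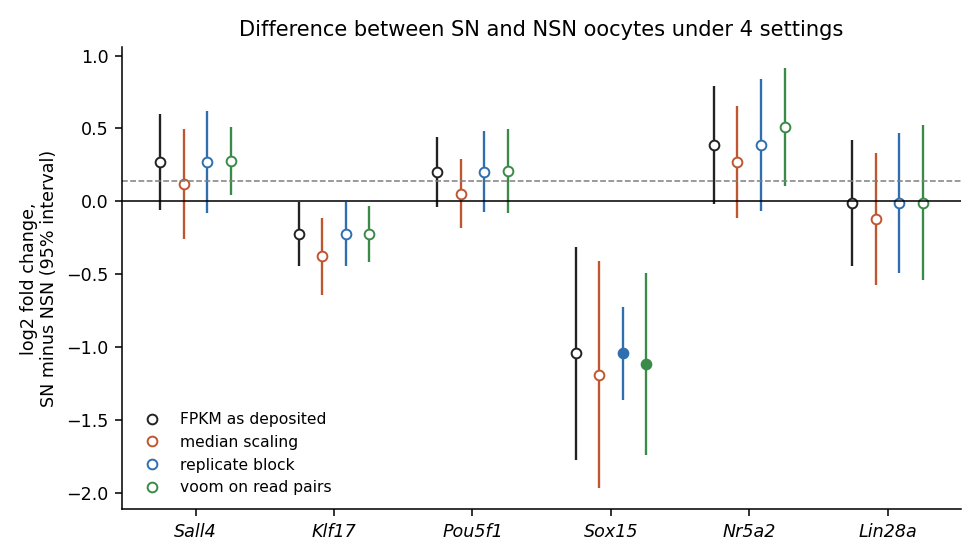
Log2 fold change (SN minus NSN) with its 95% interval for the 6 tested members, under the FPKM as deposited, median scaling, a block for the replicate number, and limma's voom on recovered read pairs. Filled points passed the test, which was the case for Sox15 under the block and under voom, and the dashed line marks the median of all genes tested, 0.14 on the deposited values.

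Sox15, an HMG-box factor of the SOX family, had the log2 fold change farthest from 0 among the tested members. It is encoded on the plus strand of GRCm39 at chr11:69545826-69547553 (ENSMUSG00000041287.7), and 2.64% of its exon bases are shared with Mpdu1 on the opposite strand, which matters because read pairs were counted without strand. Its message stood at 14.5 and 8.88 FPKM in the NSN libraries (217 and 137 read pairs) and at 7.08 and 3.87 FPKM in the SN libraries (104 and 60 read pairs). Both SN values lay below both NSN values, and the 2 libraries of each configuration also stood well apart. Mean FPKM was 11.7 ± 3.96 (NSN) and 5.47 ± 2.27 (SN), with the SD over n = 2 libraries each, a ratio of 0.469. The log2 fold change was -1.04 (standard error 0.31, 95% interval -1.78 to -0.31) and -1.18 relative to the median gene, with a limma p of 0.0124 that became 0.078 after adjustment over all genes.

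The call on Sox15 differed between settings. It passed with the replicate number as a block (limma adjusted p = 0.046, a fit that called 3.62% of all genes). It passed with genes limited to a mean of at least 5 FPKM (limma adjusted p = 0.030, a fit that called 1496 of 5519 genes). With voom on recovered read pairs it passed as well (limma adjusted p = 0.017, a fit that called 19.7% of all genes). It also passed without NSN replicate 2 (limma adjusted p = 0.021, log2 fold change -1.38), whereas without NSN replicate 1 or without SN replicate 2 the log2 fold change was -0.71 or -0.65 (limma adjusted p = 0.23 and 0.21). The direction was the same under every setting tried.

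The study's PCR primers for Sox15 are shown because they are the sequences with which the study assayed this gene apart from sequencing. Both lie in the coding part of exon 1 of the annotated transcript on GRCm39, the forward primer at chr11:69546488-69546507 on the plus strand and the reverse primer at chr11:69546584-69546604 on the minus strand, 117 bases from end to end.
Sox15 forward primer: tggaggaggctaagcgtctt
Sox15 reverse primer: cttcttggctaaaggggacag

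SOX2, the usual partner of POU5F1, could not be followed, since Sox2 was not listed. The gene lies at chr3:34704554-34706610 of GRCm39, inside the long noncoding gene Sox2ot. Sox2ot was listed, with 6 and 3 read pairs in the NSN and 5 and 8 in the SN libraries, a level at which no difference could be seen. Of 18 other SOX genes 5 were listed and only Sox8 passed the filter. Sox8 stood at 2.71 and 2.44 FPKM in NSN and 1.66 and 2.27 FPKM in SN oocytes, and its log2 fold change was -0.33 with a limma adjusted p of 0.24. Averaged over libraries, Sox15 was thus the SOX gene with the highest FPKM among those listed in these oocytes.

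**Figure D3:**
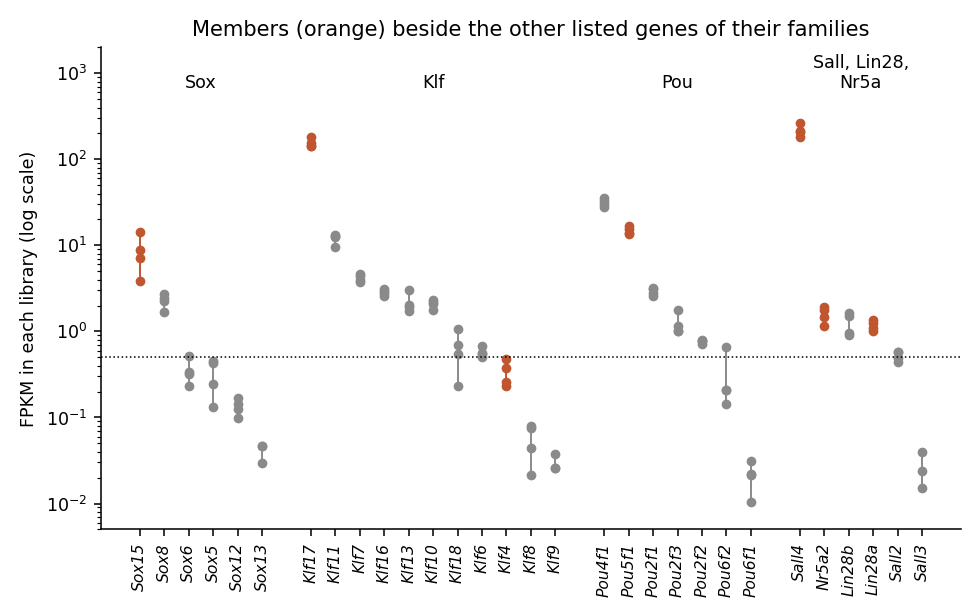
FPKM (log scale) of the listed SOX, KLF, POU, SALL, LIN28 and NR5A genes, with each point 1 library, members in orange, other family genes in grey, and a dotted line at the 0.5 FPKM filter. Libraries at 0 are not drawn. Sox15, Klf17 and Sall4 lie highest in their families, while Pou5f1 lies below Pou4f1.

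Klf17, a zinc-finger factor of the KLF family with an oocyte and early embryonic expression, was the second most abundant member. It lies on the minus strand at chr4:117615033-117622845 of GRCm39 (ENSMUSG00000048626.7) and shares no exon base with another gene. It stood at 179.8 and 155 FPKM in the NSN libraries and at 145 and 141 FPKM in the SN libraries, backed by 5929 to 7511 read pairs. The SN libraries lay close together and below both NSN libraries, of which replicate 1 was the higher. Mean FPKM was 167 ± 17.4 (NSN) and 143 ± 2.33 (SN), with the SD over n = 2 libraries each. The log2 fold change was -0.22 (standard error 0.09, 95% interval -0.44 to -0.0032) and -0.36 relative to the median gene, with a limma adjusted p of 0.15 (unadjusted 0.0476). Klf17 passed under 1 setting, voom with median scaling, where its log2 fold change was -0.38 and its limma adjusted p 0.026. That fit called 1701 of the 11660 genes it tested and was added after seeing the data. Without NSN replicate 1 the log2 fold change was -0.12 (limma adjusted p = 0.59).

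Klf4, a KLF factor of the reprogramming cocktail, was low and had a mean below the 0.5 FPKM filter. It lies on the minus strand at chr4:55527139-55532528 of GRCm39 (ENSMUSG00000003032.10). It stood at 0.379 and 0.479 FPKM in the NSN libraries and 0.232 and 0.257 FPKM in the SN libraries, which is 20 and 26 against 12 and 14 read pairs. Both SN values lay below both NSN values. In a fit of all listed genes, where the filter was dropped, its log2 fold change on the log2(FPKM + 0.5) scale was -0.32 (standard error 0.14, 95% interval -0.65 to 0.0097, limma adjusted p = 0.22). Klf5, which acts in the trophectoderm and inner cell mass, was not listed.

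Among 15 other KLF genes 9 were listed, 7 were tested and none was called, with a median log2 fold change of 0.06. The most abundant was Klf11, a TGF-beta-inducible repressor, at 11.1 ± 2.02 FPKM in NSN against 13.0 ± 0.125 in SN oocytes (SD, n = 2 each). Klf7 stood at 3.85 and 4.54 FPKM and Klf16 at 2.85 and 2.87 FPKM in NSN and SN oocytes. Klf17 stood above every other listed KLF gene in each library.

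The promoters of Sox15 and Klf17, the members at an unadjusted p under 0.05, held the same KLF-type word, GGGTGTGG, which is shown in capitals in 60 bases of each. The windows come from the RefSeq promoters of GRCm38.p6, which run from 250 bases before to 50 bases after a start, and read 5′ to 3′ along the gene. The Sox15 window is chr11:69654858-69654917 on the plus strand, with the word from -153 to -146 relative to the start. The Klf17 window is chr4:117765666-117765725 on the minus strand, with the word from -33 to -26.
Sox15 promoter: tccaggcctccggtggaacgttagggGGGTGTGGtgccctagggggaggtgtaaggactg
Klf17 promoter: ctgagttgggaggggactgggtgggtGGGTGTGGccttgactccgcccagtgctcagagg

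On both strands, GGGTGTGG occurred in 3.56% of the 32851 promoters. The words were chosen with these promoters in view, so the matches are a description of the letters and no test was made of them. Of the 9 members 7 had at least 1 promoter in the table, 9 promoters in all, and Klf5 and Sall4 were missing entries. No member promoter held the POU octamer ATGCAAAT (1.74% of all promoters) or the NR5A word CAAGGTCA (1.56%). The SOX word AACAATG (3.78%) was found once, in the downstream promoter of Pou5f1, and TATAAA (13.6%) once, in an Nr5a2 promoter. Base composition ranged widely, from a GC content of 74.3% with 40 CpG sites in the window of Klf4 to 42.0% with 2 CpG sites in 1 of the 2 Nr5a2 promoters. Sox15 (56.0%, 5 CpG sites) and Klf17 (50.7%, 6 CpG sites) lay near the median of all promoters, 52.7% and 7 CpG sites.

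Pou5f1 encodes OCT4, the POU-domain factor at the centre of the pluripotency network. It lies on the plus strand at chr17:35816789-35822274 of GRCm39 (ENSMUSG00000024406.18), and 14.1% of its exon bases lie in noncoding genes of the opposite strand that were not listed. The message stood at 14.0 and 13.7 FPKM in the NSN libraries and at 16.7 and 15.3 FPKM in the SN libraries, backed by 331 to 388 read pairs. Both SN values lay above both NSN values, by a small margin. Mean FPKM was 13.8 ± 0.190 (NSN) and 16.0 ± 0.955 (SN), with the SD over n = 2 libraries each. The log2 fold change was 0.20 (standard error 0.10, 95% interval -0.04 to 0.44, limma adjusted p = 0.21), but only 0.07 relative to the median gene. After median scaling it was 0.05 (limma adjusted p = 0.75).

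The SOX word in the downstream Pou5f1 promoter is shown in capitals because POU5F1 and SOX factors act as partners. The 60 bases are chr17:35508622-35508681 of GRCm38.p6 on the plus strand, with the word from -159 to -153.
Pou5f1 promoter: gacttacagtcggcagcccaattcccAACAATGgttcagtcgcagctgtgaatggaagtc

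Of 14 other POU genes 6 were listed, 4 were tested and none was called, with a median log2 fold change of 0.12. Pou5f1 was not the most abundant of its family. Pou4f1, better known from sensory neurons, stood at 28.8 ± 1.68 FPKM in NSN against 33.8 ± 1.79 in SN oocytes (SD, n = 2 each, limma adjusted p = 0.15). Pou2f1, a widely expressed octamer-binding factor, stood at 2.70 and 3.19 FPKM, and Pou2f3 at 1.40 and 1.09 FPKM.

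Sall4, a zinc-finger factor that recruits the nucleosome remodelling and deacetylase (NuRD) complex, was the most abundant member. It lies on the minus strand at chr2:168590252-168609863 of GRCm39 (ENSMUSG00000027547.18), and 11% of its exon bases lie in the unlisted noncoding gene Gm14261 of the opposite strand. It stood at 213 and 179.7 FPKM in the NSN libraries and at 209 and 268 FPKM in the SN libraries, backed by 16329 to 24439 read pairs. The groups overlapped, as SN replicate 1 lay below NSN replicate 1 and only SN replicate 2 stood above the rest. Mean FPKM was 197 ± 23.9 (NSN) and 238 ± 41.3 (SN), with the SD over n = 2 libraries each. The log2 fold change was 0.27 (standard error 0.14, 95% interval -0.06 to 0.60, limma adjusted p = 0.22), and 0.13 relative to the median gene. It was 0.10 without SN replicate 2 (limma adjusted p = 0.67) and 0.45 without SN replicate 1 (limma adjusted p = 0.097). Its paralogue Sall2 stood at 0.537 and 0.507 FPKM in NSN and SN oocytes, Sall3 was below the filter, and Sall1 was not listed.

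Of the 15 NuRD genes all were listed, 12 were tested and 3 were called, all higher in SN oocytes. Of all genes tested 7.93% were called, 75.1% of them higher. Chd4, the remodelling ATPase, rose from 6.89 ± 0.493 to 10.3 ± 0.825 FPKM (log2 fold change 0.55, limma adjusted p = 0.046). Hdac2, a histone deacetylase, rose from 8.50 ± 0.179 to 13.0 ± 0.925 FPKM (log2 fold change 0.58, limma adjusted p = 0.039), and Mta1, a scaffold subunit, from 2.23 ± 0.116 to 3.70 ± 0.118 FPKM (log2 fold change 0.62, limma adjusted p = 0.047), each SD with n = 2. The other 9 did not pass, and the median log2 fold change of the 12 was 0.10, beside 0.14 for all genes tested. All 3 calls were lost under median scaling (log2 fold changes of 0.41 to 0.49, limma adjusted p from 0.067 to 0.085), with totals without the 100 most abundant genes (0.47 to 0.55, adjusted p 0.058 to 0.069), with the replicate block (the same fold changes, adjusted p 0.058 to 0.074) and without NSN replicate 1, SN replicate 1 or SN replicate 2 (adjusted p 0.099 to 0.16). The 3 also did not pass with all listed genes (limma adjusted p from 0.058 to 0.081) or with no variance trend (limma adjusted p 0.092). Those settings called 0 of all genes. With voom and median scaling Chd4, Hdac2 and Mta1 passed together with Hdac1, in a fit that called 1701 of 11660 genes. Hdac1 went the other way, at 4.51 and 5.10 FPKM in NSN and 3.54 and 3.14 FPKM in SN oocytes. The call on Mta1 was also lost without NSN replicate 2 (adjusted p 0.069).

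Lin28a was a rare message with no visible difference between the configurations. It lies on the minus strand at chr4:133730641-133746173 of GRCm39 (ENSMUSG00000050966.11), and 6.27% of its exon bases are shared with the listed noncoding gene Gm13061 of the opposite strand. It stood at 1.36 and 1.02 FPKM in the NSN libraries and at 1.10 and 1.24 FPKM in the SN libraries (83, 64, 66 and 78 read pairs). Both SN values lay between the NSN values. The log2 fold change was -0.01 with a standard error of 0.18 and a limma adjusted p of 0.97, and its 95% interval of -0.45 to 0.42 still holds moderate differences in either direction. Relative to the median gene it was -0.15. Its paralogue Lin28b, which also blocks let-7 maturation, stood at 0.914 and 0.961 FPKM in NSN and at 1.65 and 1.49 FPKM in SN oocytes. These groups did not overlap, with a log2 fold change of 0.52 ± 0.16 (standard error) and a limma adjusted p of 0.086. Of 12 genes of the LIN28 and let-7 pathway, Lin28b among them, 11 were listed, 10 were tested and none was called, with a median log2 fold change of 0.18. Dicer1, which cuts microRNA precursors, passed with a mean of at least 5 FPKM and without NSN replicate 2. With voom 3 genes passed (Dicer1, Drosha and Lin28b, all higher in SN oocytes), beside 19.7% of all genes. With voom and median scaling 3 passed (Dicer1, higher, and Igf2bp3 and Trim71, lower), where 1701 of 11660 genes were called. The most abundant were the message-binding proteins Igf2bp2 at 59.8 and 67.3 FPKM and Igf2bp3 at 25.1 and 22.3 FPKM, and the let-7 target Trim71 at 15.2 and 12.6 FPKM in NSN and SN oocytes.

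Nr5a2 encodes LRH-1, an orphan nuclear receptor that acts in early embryos and in the granulosa cells around the oocyte. It lies on the minus strand at chr1:136770303-136888186 of GRCm39 (ENSMUSG00000026398.16), and 4.81% of its exon bases lie in the unlisted noncoding gene Gm70689. It stood at 1.15 and 1.47 FPKM in the NSN libraries and at 1.94 and 1.78 FPKM in the SN libraries (112, 147, 185 and 179 read pairs). Both SN values lay above both NSN values. Mean FPKM was 1.31 ± 0.225 (NSN) and 1.86 ± 0.113 (SN), with the SD over n = 2 libraries each. The log2 fold change was 0.39 (standard error 0.17, 95% interval -0.02 to 0.79, limma adjusted p = 0.17) and 0.25 relative to the median gene. Its relative Nr5a1, also a granulosa cell gene, was not listed.

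Apart from Cyp19a1, the granulosa and cumulus cell markers were low in all libraries. With Cyp19a1 they summed to 8.53 and 12 FPKM in NSN oocytes and to 12.1 and 11.6 FPKM in SN oocytes. NSN replicate 1 was lowest for this sum and for Nr5a2. Most of the sum was Cyp19a1, the aromatase, at 5.81 and 8.06 FPKM in NSN and 8.38 and 8.22 FPKM in SN oocytes. Its mean was above or level with 73.3% of the listed genes. Kitl and Inha were the other markers tested, and none of the 3 was called. Theca and stroma markers summed to 0.849 and 1.79 FPKM in NSN and 2.74 and 2.2 FPKM in SN oocytes, from 2 listed genes of 7. Most of this was Dcn, at 0.829 and 1.76 FPKM in NSN and 2.72 and 2.18 FPKM in SN oocytes. Its groups did not overlap (limma adjusted p = 0.11). The part of other ovarian cells in the level of Nr5a2 was not tested.

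**Figure D4:**
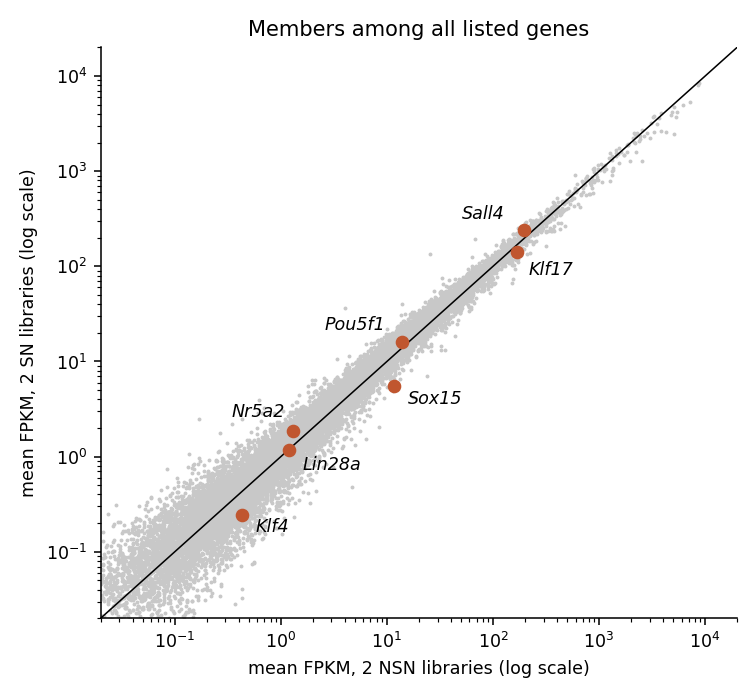
Mean FPKM of the 2 SN libraries against that of the 2 NSN libraries (log scales) for the listed genes, with the 7 listed members in orange and equality as the line. Sox15 (11.7 and 5.47 FPKM) and Klf4 (0.429 and 0.244 FPKM) lie below the line, and the other members lie near it.

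Ratios within a library do not depend on the library's scaling. The ratio of Sox15 to Pou5f1 was 1.04 and 0.649 for NSN and 0.424 and 0.252 for SN oocytes. Which of the 2 messages was the more abundant depends on the gene lengths, since with the exon lengths of the current annotation the ratio was 1.72 and 1.08 for NSN and 0.705 and 0.42 for SN oocytes. The lower ratios of the SN libraries do not depend on the lengths. The ratio of Sox15 to Klf17 was 0.0805 and 0.0573 in NSN and 0.0489 and 0.0274 in SN oocytes. The ratio of Klf17 to Sall4 was 0.842 and 0.863 in NSN and 0.692 and 0.528 in SN oocytes. Each of these ratios was lower in both SN libraries, whereas that of Nr5a2 to Pou5f1 was 0.0827 and 0.108 in NSN and 0.117 and 0.116 in SN oocytes. They were chosen with the members' values in view and were not tested.

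A search for the gene with the most similar course over the 4 libraries set Sox15 apart in a descriptive sense. Likeness was the root mean square difference of log2(FPKM + 0.5), centred per gene, among 5518 or 5519 other genes with a mean of at least 5 FPKM. The gene closest to Sox15 was Gm9229, at a distance of 0.166, and no gene lay within 0.1. Pou5f1 was closest to Atg101 (0.00806), with 1418 genes within 0.1, and Klf17 to Tmem35b (0.0135), with 597. Sall4 was closest to Exosc5 (0.0145), Lin28a to Lmna (0.0085) and Nr5a2 to Poc5 (0.00221), with 134, 434 and 980 genes within that distance. With 4 libraries such closeness is easily met, and genes with a small range over the libraries have more neighbours by construction.

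Of 22 other genes of the pluripotency network 11 were listed, among them none of Nanog, Myc, Fgf4, Utf1 or Tdgf1, and 8 were tested, while Tbx3, Tfcp2l1 and Prdm14 were below the filter. Dppa5a, an RNA-binding protein of pluripotent cells, stood at 244.2 and 244.4 FPKM in the NSN libraries and at 176 and 180.3 FPKM in the SN libraries, and was the 1 gene that passed the test, falling (log2 fold change -0.46, standard error 0.07, limma adjusted p = 0.036). It passed under 8 of the 10 alternatives that kept all libraries, with adjusted p values up to 0.094, and missed the threshold without NSN replicate 1, SN replicate 1 or SN replicate 2 (0.066 to 0.091). With a mean of at least 5 FPKM 2 genes passed (Dppa5a and Dppa2), where 1496 of 5519 genes were called. With voom 3 passed (with Stat3 besides), where 2297 of 11660 were called. With voom and median scaling 3 passed (Dppa5a, Dppa3 and Stat3), where 1701 of 11660 were called. On the deposited values Dppa2 was higher in SN oocytes (log2 fold change 0.35), and Stat3 (-0.34) and Dppa3 (-0.13) were lower. The 1 call among the 8 stands beside 7.93% of all genes tested. The median log2 fold change of the 8 was -0.15.

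Transcription factors of the early embryo included 16 listed genes of 20, of which 12 were tested. Of these 1 was called, higher in SN oocytes, beside 7.93% of all genes tested. Nfya, a subunit of the CCAAT-binding factor NF-Y, stood at 5.25 and 6.82 FPKM in the NSN libraries and at 11.7 and 11.2 FPKM in the SN libraries (log2 fold change 0.88, standard error 0.14, limma adjusted p = 0.036). It did not pass with all listed genes or with no variance trend (limma adjusted p = 0.054 and 0.092). Its call was lost under median scaling (log2 fold change 0.73, limma adjusted p = 0.0503) and without NSN replicate 1, SN replicate 1 or SN replicate 2 (0.072 to 0.095). Yap1, a coactivator of TEAD factors, passed beside Nfya with a mean of at least 5 FPKM, with voom under both scalings and without NSN replicate 2. The median log2 fold change of the 12 was 0.20.

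**Figure D5:**
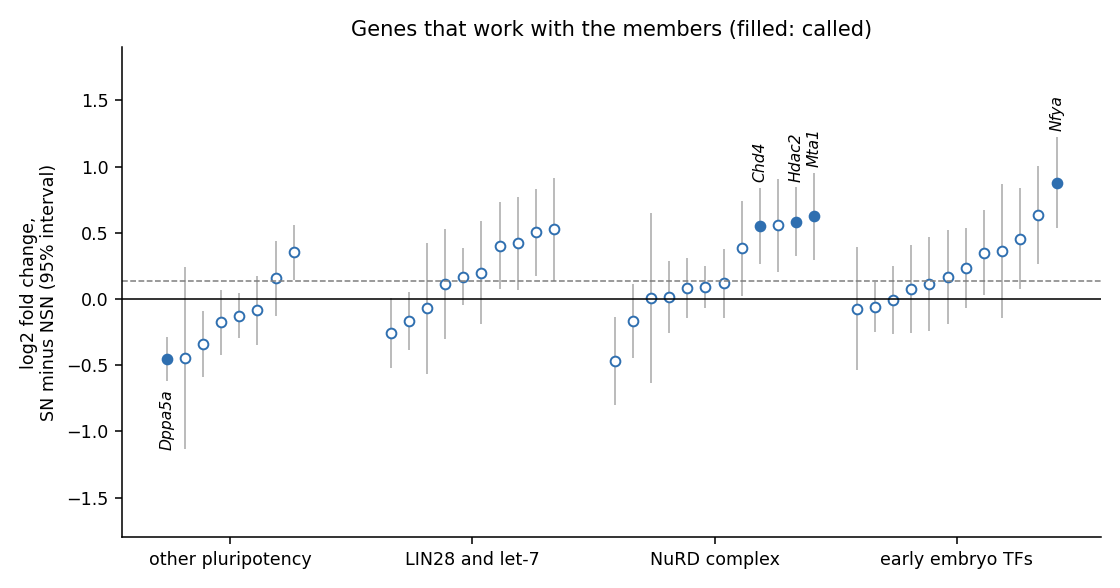
Log2 fold change (SN minus NSN) with its 95% interval for the tested genes of 4 lists, ordered by value within each list, with filled points for genes that passed the test and the dashed line at the median of all genes tested, 0.14. The filled points are Dppa5a (-0.46), Chd4 (0.55), Hdac2 (0.58), Mta1 (0.62) and Nfya (0.88).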

How the data were processed

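Per the submitters' notes and methods, the authors used Trim Galore 0.6.10, HISAT2 on GRCm39 and featureCounts over exons, ignoring strand, and deposited 1 FPKM file per library from their own script. The authors used DESeq2 for their own comparison, which was not used here. The FPKM of 5 mitochondrial tRNA genes gave back the library totals, and 99.9% of genes gave whole read pairs (tolerance 1e-06).

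SN was compared with NSN (2 libraries each) by limma 3.58.1 in R 4.3.3 (lmFit, eBayes with trend) on log2(FPKM + 0.5) wherever the mean reached 0.5 FPKM (11672 genes), with Benjamini-Hochberg adjustment over all of them. Fold changes on this scale understate changes of low genes. Calls needed a fold change of 1.2 or more with an adjusted p under 0.05. The fit was also run on 3 simulated data sets with 200 genes changed. They lacked the shift of the median gene seen here, so they cannot show that the calls are right. Alternatives were a pseudocount of 0.1 or 1, no expression filter, a filter at a mean of 5 FPKM, median scaling, totals without the 100 most abundant genes, a fit lacking the variance trend, a block for the replicate number, voom on recovered read pairs and each library left out. Voom with median scaling was added after seeing the data.

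The members and lists were chosen with earlier results of these data known. All members are named. Of each list the genes called are named, otherwise the 3 most abundant tested (all tested where fewer), and some others where a member's description needs them or where they passed under an alternative, chosen after their values were seen. For each member the 1 most alike gene is named. Positions are from GENCODE on GRCm39 and promoters from RefSeq on GRCm38.p6. Python 3.11.15, numpy 2.4.6, pandas 2.3.3, scipy 1.17.1 and matplotlib 3.10.9 were used.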

Additional observations from a re-analysis of the deposited data

How the results depend on the processing

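With 2 libraries a group, precision rests on the spread between libraries, and Klf4, Lin28a, Nr5a2 and Sox15 also had at most 217 read pairs in a library. The number of genes called by limma, 926 (75.1% higher in SN), was 0 with all listed genes (4092 at an unadjusted p under 0.05), 0 with no variance trend (3449), 1496 with a mean FPKM of at least 5, 234 under median scaling (28.6% higher), 248 with totals without the 100 most abundant genes (42.3% higher), 422 with the replicate block (63.0% higher), 2297 with voom and 1701 with voom and median scaling (43.6% higher). It ranged from 0 to 1685 with a library left out, at 0 without NSN replicate 1 (2278 at an unadjusted p under 0.05), 1685 without NSN replicate 2, 148 without SN replicate 1 and 11 without SN replicate 2. In these fits the lone library was assumed to vary like the other group. The cause was not tested.

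The number of members called, 0, was 1 (Sox15) with a mean FPKM of at least 5, the replicate block or voom, 2 (Sox15 and Klf17) with voom and median scaling, and 0 to 1 with a library left out. Of the members' fold changes under alternatives that kept all libraries, 53 stayed on the same side of the threshold, 5 passed it and 0 reversed. Of the 6 tested members Lin28a changed sign with a library left out, at 0.13 without NSN replicate 1 and 0.05 without SN replicate 1 (limma adjusted p = 0.80 and 0.92). Left-out libraries gave log2 fold changes of -1.44 to -0.65 for Sox15, 0.14 to 0.26 for Pou5f1, -0.33 to -0.12 for Klf17, 0.10 to 0.45 for Sall4, -0.16 to 0.13 for Lin28a and 0.26 to 0.51 for Nr5a2.

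Replicate numbers recur in both groups, but the labels do not tie them to an animal or day. The replicate differences of the 2 groups correlated at -0.07 across 11672 genes. A correlation over all genes cannot decide whether libraries of the same number shared an animal or day. The block changed the call of 1 member, Sox15. Its level was higher in replicate 1 than in replicate 2 in both groups. The standard error of its log2 fold change was 0.31 without and 0.13 with the block.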
